A study of Mus musculus with 14 samples.

Results

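The Bcl2 family decides whether a cell with a damaged or starved mitochondrion lives or dies. The 10 members described here were Bcl2l1, Mcl1, Bcl2, Bax, Bak1, Bcl2l11, Bad, Bid, Bbc3 and Pmaip1, out of 21883 protein-coding mouse genes. They were chosen by name as survival genes of the family, not by a cut on any value measured here. Earlier results of these data were known when they were chosen. Each was described over its annotated body with 5 kb on either side on the mouse build GRCm38.

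The values came from chromatin immunoprecipitation with sequencing (ChIP-seq), which counts the DNA fragments pulled down with an antibody. Antibodies were against the transcription factors GATA2 and RUNX1 and against elongating RNA polymerase II, which carries a phosphate on serine 2 of its tail (S2P). All samples were G1ER cells, a mouse erythroblast line without functional endogenous GATA1 that carries an estradiol-activated GATA1 fusion, either wild type (WT) or Chd7-/- (KO). Chd7 encodes an ATP-driven chromatin remodeller, and the series addressed its interplay with RUNX1 in blood cell differentiation. Both genotypes were grown with EPO and SCF, so every sample received the cytokines that erythroid precursors depend on. The labels describe differentiation with beta-estradiol, scored after 48 h, but do not say whether the cells used for ChIP were treated, nor whether the KO cells were 1 clone.

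The 14 samples were 8 immunoprecipitations and 6 inputs, and the deposited peaks formed 6 lists, 1 per target and genotype. Each factor list rested on 1 library, and each S2P list was labelled for 2 replicates. With 1 list on either side there was no replicate spread, so no difference between WT and KO was tested, and every difference below compares those lists. The GATA2 list held 68199 peaks in WT and 80611 in KO. RUNX1 had 28952 and 35281 peaks, and S2P 163620 and 165206. The median summit rested on 23 to 38 fragments in the 4 factor lists. S2P covered at least 50% of 4 of 5 erythroid marker genes of 2 kb or more in both genotypes, and 1 of 5 markers of other blood cells in WT and 0 in KO. The erythroid marker not covered was Alas2, with 18.5% of its body under S2P peaks in WT and 22.6% in KO. The marker of other cells covered in WT was the mast cell gene Cpa3, with 54.5% in WT and 39.8% in KO.

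The family works by 3 kinds of protein. Guardians (encoded by Bcl2l1, Mcl1 and Bcl2) hold the effectors in check. The effectors (Bax and Bak1) open the outer mitochondrial membrane and release cytochrome c, which starts the caspase cascade. BH3-only proteins (encoded by Bcl2l11, Bad, Bid, Bbc3 and Pmaip1, known as BIM, BAD, BID, PUMA and NOXA) bind the guardians, and some of them also activate the effectors directly. In red cell precursors BCL-XL, the product of Bcl2l1, is known for protecting maturing erythroblasts, MCL-1 for keeping stem and early progenitor cells alive, and BIM for carrying out death when cytokine is withdrawn.

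RUNX1 sat at the promoters of 6 of the 9 members with a promoter entry, and GATA2 at none. The window ran from 250 bases before to 50 after a RefSeq start site, and a promoter counted where the summit of a peak lay in the window in both genotypes. Over all 17491 genes with an entry the share was 28.6% for RUNX1 and 2.75% for GATA2. The 6 members were Mcl1, Bax, Bid, Bbc3, Bcl2l11 and Bad, so 1 guardian, 1 effector and 4 BH3-only genes. The 250 bases before the start are printed for these 6, since they carry the RUNX1 peaks, in order of the stronger RUNX1 summit. Bak1, the other effector, is added as a contrast without a RUNX1 summit in its promoter window. It was chosen after its values were seen. The sequences are RefSeq's, of GRCm38.p6, and are written 5′ to 3′ along the strand of the gene. Capitals mark motifs on either strand. The RUNX motifs searched were TGTGGT and also TGCGGT, and the GATA motifs were AGATAA and also TGATAA and also AGATAG and also TGATAG.
Mcl1, chr3:95658471-95658720, plus strand: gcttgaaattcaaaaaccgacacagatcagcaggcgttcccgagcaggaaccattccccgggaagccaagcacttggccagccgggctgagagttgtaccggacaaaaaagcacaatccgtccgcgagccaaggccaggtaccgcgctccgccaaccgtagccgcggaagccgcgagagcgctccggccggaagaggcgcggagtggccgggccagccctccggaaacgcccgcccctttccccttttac
Bax, chr7:45466899-45467148, minus strand: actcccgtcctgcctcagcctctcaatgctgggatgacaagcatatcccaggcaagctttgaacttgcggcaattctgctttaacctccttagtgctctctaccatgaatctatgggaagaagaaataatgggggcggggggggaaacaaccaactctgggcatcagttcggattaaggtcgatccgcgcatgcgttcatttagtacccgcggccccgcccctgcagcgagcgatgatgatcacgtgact
Bid, chr6:120916825-120917074, minus strand: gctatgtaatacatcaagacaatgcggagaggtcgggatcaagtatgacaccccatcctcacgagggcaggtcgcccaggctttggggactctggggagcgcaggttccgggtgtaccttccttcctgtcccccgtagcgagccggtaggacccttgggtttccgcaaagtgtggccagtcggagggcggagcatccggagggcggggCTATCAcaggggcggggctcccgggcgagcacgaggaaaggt
Bbc3, chr7:16309333-16309582, plus strand: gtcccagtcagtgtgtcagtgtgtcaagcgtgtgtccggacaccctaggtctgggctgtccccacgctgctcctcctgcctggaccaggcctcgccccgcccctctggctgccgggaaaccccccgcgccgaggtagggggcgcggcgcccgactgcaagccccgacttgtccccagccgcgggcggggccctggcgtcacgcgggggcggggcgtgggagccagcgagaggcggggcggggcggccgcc
Bbc3, chr7:16310011-16310260, plus strand: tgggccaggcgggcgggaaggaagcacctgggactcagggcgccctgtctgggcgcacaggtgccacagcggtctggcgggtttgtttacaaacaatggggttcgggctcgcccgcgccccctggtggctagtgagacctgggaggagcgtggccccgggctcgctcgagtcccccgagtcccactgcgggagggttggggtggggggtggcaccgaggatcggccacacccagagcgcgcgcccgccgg
Bcl2l11, chr2:128125788-128126037, plus strand: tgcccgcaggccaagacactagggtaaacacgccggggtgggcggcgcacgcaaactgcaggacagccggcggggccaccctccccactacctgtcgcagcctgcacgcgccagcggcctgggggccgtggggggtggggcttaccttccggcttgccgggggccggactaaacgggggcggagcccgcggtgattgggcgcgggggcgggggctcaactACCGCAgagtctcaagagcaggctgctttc
Bcl2l11, chr2:128127325-128127574, plus strand: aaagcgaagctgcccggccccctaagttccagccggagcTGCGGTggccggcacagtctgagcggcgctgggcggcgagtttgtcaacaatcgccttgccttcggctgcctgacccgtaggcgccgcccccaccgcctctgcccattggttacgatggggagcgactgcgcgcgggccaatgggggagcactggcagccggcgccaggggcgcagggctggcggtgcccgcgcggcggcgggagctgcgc
Bad, chr19:6942312-6942561, plus strand: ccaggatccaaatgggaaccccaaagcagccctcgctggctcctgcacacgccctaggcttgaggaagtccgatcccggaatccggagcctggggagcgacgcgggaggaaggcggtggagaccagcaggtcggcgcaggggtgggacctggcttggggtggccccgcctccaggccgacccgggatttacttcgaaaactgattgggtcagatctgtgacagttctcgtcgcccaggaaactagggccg
Bad, chr19:6941611-6941860, plus strand: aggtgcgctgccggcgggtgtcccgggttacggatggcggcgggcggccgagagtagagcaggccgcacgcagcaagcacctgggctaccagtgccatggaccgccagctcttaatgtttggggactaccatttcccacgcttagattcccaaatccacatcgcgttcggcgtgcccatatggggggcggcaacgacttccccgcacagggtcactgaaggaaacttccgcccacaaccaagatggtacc
Bak1, chr17:27028628-27028877, minus strand: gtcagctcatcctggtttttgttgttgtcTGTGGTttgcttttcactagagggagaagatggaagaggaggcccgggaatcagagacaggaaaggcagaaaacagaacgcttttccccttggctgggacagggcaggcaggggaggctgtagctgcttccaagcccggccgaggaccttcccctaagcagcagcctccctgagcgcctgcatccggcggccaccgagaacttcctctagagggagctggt

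RUNX1 fragment numbers at these promoters were highest at Mcl1, with 117 at the summit in WT (exact Poisson 95% interval 96.8 to 140, for counting error only) and 151 in KO (128 to 177). Bax followed with 101 and 115, Bid with 64 and 89, and the upstream of the printed Bbc3 promoters with 51 and 74. A further Bbc3 summit had 55 and 70 fragments and lay in the windows of 2 start sites at once. The Bcl2l11 promoters held 60 and 64 fragments at the upstream start and 62 and 64 at the downstream one. The Bad promoters held 62 and 62, and 47 and 48. The KO number was the higher of the pair, or equal to it, at each of these promoters, and all the pairs of intervals overlapped. Scaled to library depth, 70.8% of all paired RUNX1 peaks were higher in KO, so this direction was also the common one in the list.

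The summits lay close to the starts. The Mcl1 summit was 19 bp before the start in WT and 27 bp before it in KO, and the Bax summit was 15 and 25 bp after it. The Bid summit was 82 and 64 bp before its start, and the Bbc3 summit near the middle start 48 and 35 bp before. At Bcl2l1, the windows of the 3 annotated starts held no RUNX1 summit in either genotype. Its strongest RUNX1 peak near a start had 115 fragments in WT, 346 bp after the outermost start, and 157 in KO, 318 bp after it. A weaker Bcl2l1 peak of 30 fragments, 83 bp after the middle start, was listed in KO only. Bcl2 and Bak1 had no RUNX1 summit within 1 kb of their own starts.

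Of the 10 member windows with RUNX1 in both genotypes, 2 contained a RUNX motif, both at Bcl2l11. That of the upstream start was TGCGGT on the opposite strand, 30 bases before the start, and that of the downstream start was the same word on the strand of the gene, 211 bases before. Among all 15 member windows 3 held a RUNX motif, the other being TGTGGT at Bak1. Over all 21262 promoters of 250 bases the share was 17.7%, and over the 5397 with a RUNX1 summit in both genotypes it was 19.4%. A GATA motif stood in 2 member windows, at Bid (TGATAG on the opposite strand) and at the innermost Bcl2l1 start (AGATAA), against 23.6% of all promoters. The members' promoters were mostly rich in G and C, from 47.6% at the outermost Bcl2l1 start to 81.6% at the last Bbc3 start, with a median over all promoters of 55.6%.

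Over whole genes with their flanks, promoters included, both factors were found at 9 of the 10 members in each genotype. Pmaip1 was the exception for both. Over all protein-coding genes a GATA2 summit within 5 kb was found at 56.6% in WT and 61.0% in KO, and a RUNX1 summit at 50.1% and 52.7%. Among the 3044 genes whose bodies S2P covered in both genotypes, 81.5% had GATA2 and 92.7% had RUNX1 in both lists. All 4 members covered by S2P in both genotypes had both factors. The members together held 49 GATA2 peaks in WT and 51 in KO, and 41 and 48 RUNX1 peaks.

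**Figure D1:**
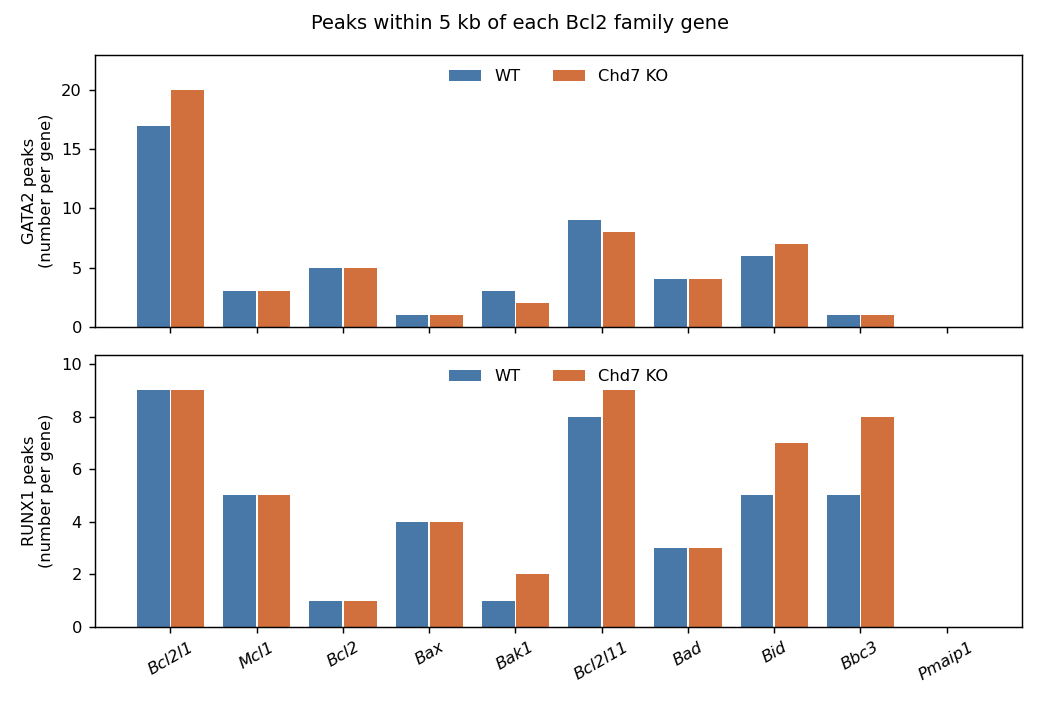
Bars give the number of GATA2 (top) and RUNX1 (bottom) peaks with a summit in each gene or within 5 kb of it, in WT and Chd7 KO, 1 list each. Bcl2l1 has the most GATA2 peaks (17 and 20), Bbc3 goes from 5 to 8 RUNX1 peaks, and Pmaip1 has none.

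The guardian Bcl2l1 (chr2:152758732-152833803, minus strand, 75.1 kb) carried the most GATA2 peaks of the family. It had 17 in WT, more than 96.9% of the genes bound by GATA2, and 20 in KO, more than 97.3%. Neither rank was adjusted for gene length, nor were the RUNX1 ranks of peak number given below. The median bound gene had 2 and 3. WT summits of 100 fragments or more lay 10.8 kb (130 fragments), 14.1 kb (229), 17.1 kb (190), 39.2 kb (208), 38.8 kb (238) and 58.6 kb (158) downstream of the nearest start. All 6 lay inside the gene. In KO the same places held 161, 246, 209, a single summit of 248, and 164 fragments. The strongest Bcl2l1 peak in WT was chr2:152789546-152789872, with an interval of 209 to 270 fragments, and 98.0% of the GATA2 peaks in the list had fewer.

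Those 2 neighbouring WT peaks, with 208 and 238 GATA2 fragments, were 1 peak of 928 bp in KO. RUNX1 showed the same change of shape. Its WT peaks of 122 and 140 fragments were 1 KO peak of 968 bp with 165 fragments. Such merged peaks have no single partner and were left out of the paired comparison below. RUNX1 lay on all 6 of the strong GATA2 peaks of WT and on all 5 of KO. Next to GATA2 it had 34 WT fragments at 10.8 kb, 84 at 14.1 kb, 43 at 17.1 kb and 38 at 58.6 kb. In KO these were 57, 105, 43 and 58 fragments, so none of the 4 was lower than in WT. The gene's 9 WT RUNX1 peaks exceeded those of 97.2% of RUNX1-bound genes, and its 9 KO peaks those of 95.7%.

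Mcl1 (chr3:95656944-95663179, plus strand) showed a compact pattern. GATA2 had 3 peaks in each genotype. The strongest, 163 fragments in WT (139 to 190) and 184 in KO (158 to 213), lay beyond the 3′ end, 7.58 kb from the start in WT. RUNX1 overlapped it, with 97 and 98 fragments. The other GATA2 summits at Mcl1 had 50 and 33 fragments in WT and 56 and 56 in KO. RUNX1 had 5 peaks in each genotype, and the promoter peak was the strongest of them.

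Bcl2 (chr1:106538176-106714290, minus strand, 176 kb) is the longest member, and it was thinly bound. It held 5 GATA2 peaks in each genotype, none above 52 fragments, and 1 RUNX1 peak of 14 fragments in WT and 19 in KO, 3.88 kb and 3.90 kb into the gene. A peak with that few fragments is weak for RUNX1: 1.07% of RUNX1-bound genes in WT had a weaker strongest peak, and 3.57% in KO. One GATA2 peak, 55.7 kb into the gene, stood apart, with 18 fragments in WT (10.7 to 28.4) and 52 in KO (38.8 to 68.2).

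Among the effectors, RUNX1 was the main factor at Bax (chr7:45461695-45466903, minus strand). Its 4 RUNX1 summits had 101, 130, 74 and 40 fragments in WT, and 115, 144, 77 and 47 in KO. All 4 were listed in both genotypes. The last 3 of them lay beyond the 3′ end of Bax and nearer to the start of Ftl1, which encodes ferritin light chain. The Bax GATA2 peak was weak, with 24 fragments in WT and 26 in KO, and these were separate sites. The KO one overlapped a WT peak whose summit fell outside the 5 kb. Bak1 (chr17:27019812-27028627, minus strand) lies wholly inside the gene Ggnbp1. Its 3 WT GATA2 summits had 31, 28 and 22 fragments, and its 2 KO summits 26 and 46. Its RUNX1 peak of 39 fragments in WT and 53 in KO lay 31 and 11 bp from the start of Ggnbp1, so it cannot be assigned to Bak1 by position.

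Among the BH3-only genes, Bcl2l11 (chr2:128126038-128162547, plus strand) had the strongest GATA2 summit of any member. It held 260 fragments in WT (229 to 294) and 264 in KO (233 to 298) at chr2:128143783-128144497 in WT, 16.6 kb into the gene. The ceiling of these lists was 286 fragments in WT and 282 in KO, so differences between summits this strong may be understated, which was not tested. A further Bcl2l11 GATA2 summit, 4.70 kb beyond the 3′ end, had 229 and 220 fragments. RUNX1 overlapped both, with 101 and 94 fragments inside the gene and 105 and 80 beyond it. Of the 8 RUNX1 summits with 100 fragments or more at members in WT, these 2 had fewer fragments in KO, and their intervals overlapped.

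Bid (chr6:120893119-120917062, minus strand) combined a RUNX1 promoter peak with a strong joint site 2.14 kb into the gene. GATA2 had 155 fragments there in WT (132 to 181) and 148 in KO (125 to 174), and RUNX1 had 65 and 72. A KO-only GATA2 peak near the 3′ end of Bid had 50 fragments (37.1 to 65.9) and was the strongest peak of any member listed in 1 genotype only. Bad (chr19:6941861-6951905, plus strand) had 4 GATA2 peaks in each genotype, the strongest beyond its 3′ end with 110 and 131 fragments. Its first promoter overlaps the gene Gpr137, which shares 590 bp with Bad. The WT RUNX1 summit of 62 fragments at its second promoter lay 56 bp from the Bad start and also 56 bp from that of Gpr137. Neither Bad promoter peak can thus be assigned to Bad alone by position.

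Bbc3 (chr7:16308398-16318334, plus strand), the gene of the p53-induced killer PUMA, was bound by RUNX1 along its 5′ part. It had 5 RUNX1 peaks in WT, with 34, 51, 55, 26 and 28 fragments. The same sites held 35, 74, 70, 39 and 41 in KO, and 3 further KO peaks had 26, 24 and 35. The KO number was the higher at all 5 shared sites, by 1 fragment at the first, where 70.8% of all RUNX1 pairs were higher in KO after scaling. GATA2 had a single Bbc3 peak, with 30 and 47 fragments. Pmaip1, on chromosome 18, had no peak of either factor. Its nearest GATA2 summit was 103 kb away in WT and 53.8 kb in KO, and its nearest RUNX1 summit 454 and 276 kb.

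**Figure D2:**
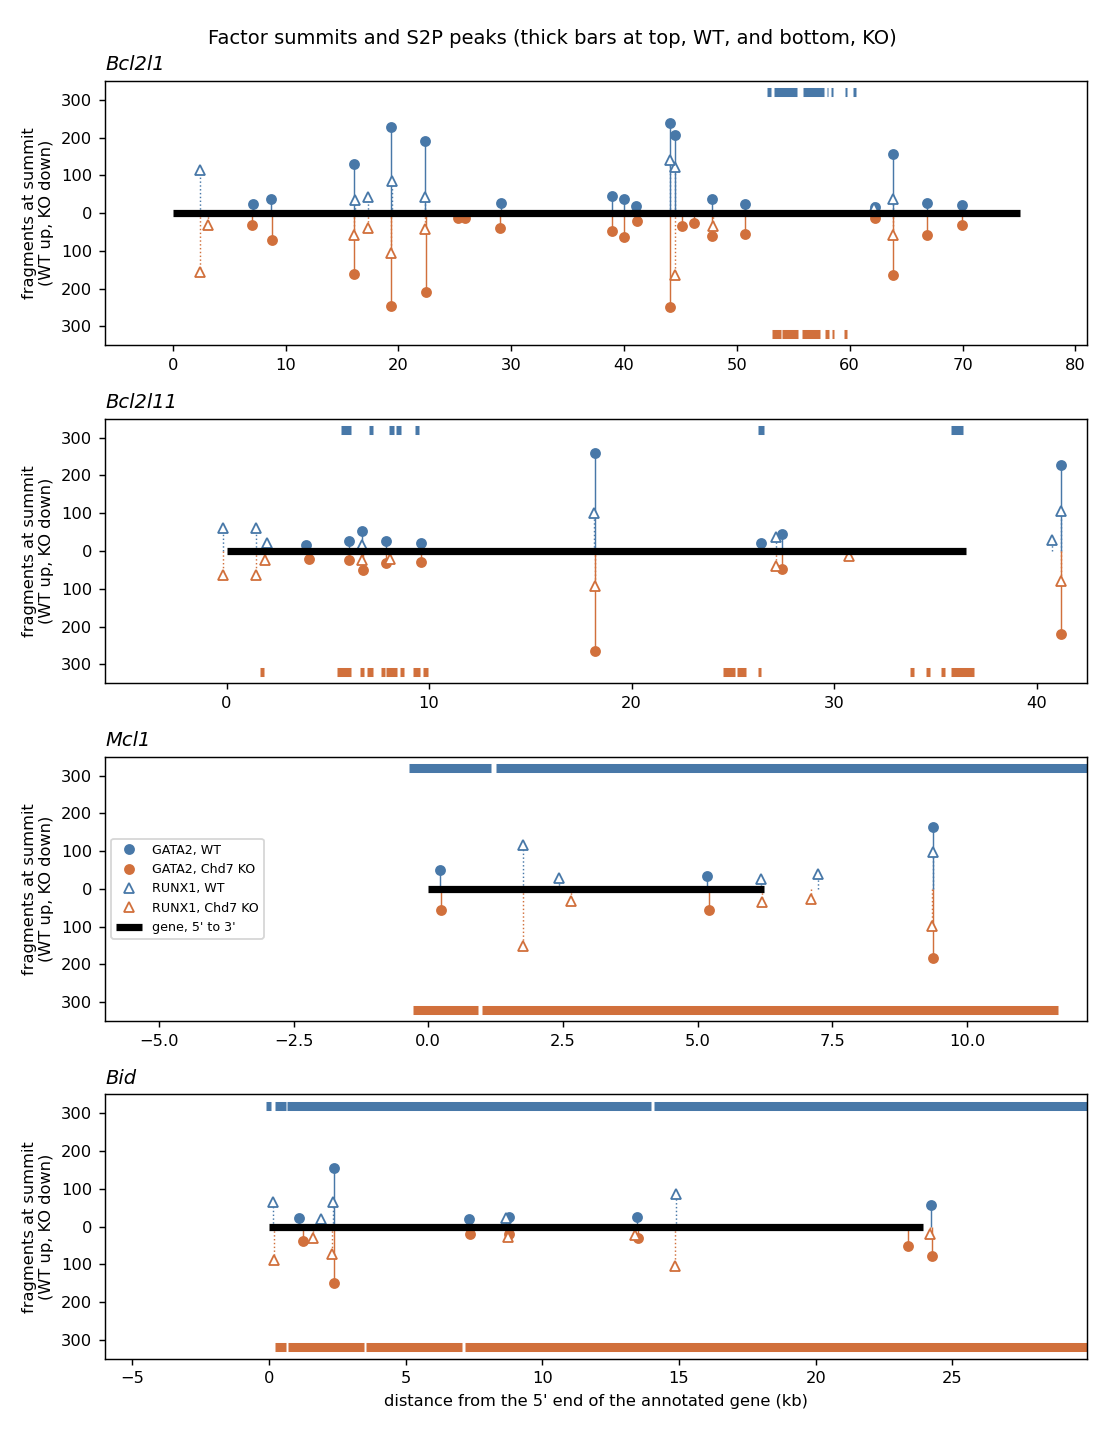
Each panel is 1 gene with 5′ at the left: points give fragments at GATA2 (filled circles) and RUNX1 (open triangles) summits, WT upward and KO downward, against the distance from the 5′ end in kb, and thick bars are S2P peaks. The strongest GATA2 summits of Bcl2l1 (238 in WT and 248 in KO) and Bcl2l11 (260 and 264) stand at like places in both genotypes, and S2P bars span Mcl1 and Bid but only a small stretch of Bcl2l1.

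Most member peaks were present in both genotypes. A peak counted as shared where it overlapped a peak of the other genotype by at least 1 bp. Of the WT GATA2 peaks 45 of 49 were shared (91.8%, exact Clopper-Pearson 95% interval 80.4 to 97.7), against 81.5% of all GATA2 peaks in that list. Of the KO GATA2 peaks 45 of 51 were shared (88.2%, 76.1 to 95.6), against 68.8%. For RUNX1, 40 of 41 WT peaks were shared (97.6%, 87.1 to 99.9), against 86.6%. Of the KO RUNX1 peaks 37 of 48 were shared (77.1%, 62.7 to 88.0), against 69.6%. Peaks of 1 gene share their surroundings, so these intervals cover counting error only.

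The peaks of 1 genotype only had at most 50 fragments. GATA2 had 4 such peaks in WT, with at most 24 fragments, and 6 in KO, the strongest being that of Bid, which exceeded 77.1% of the KO GATA2 list. RUNX1 had 1 in WT, of 13 fragments at Bcl2l1, and 11 in KO, with 14 to 35 fragments. Of those 11, 8 lay at BH3-only genes: 3 each at Bid and Bbc3 and 2 at Bcl2l11. These genes held 27 of all 48 member RUNX1 peaks in KO. The others lay at Bcl2l1 (2) and Bak1 (1). The whole RUNX1 list of KO also held more peaks than that of WT. With peaks of −log10 q below 5 left out, 7 RUNX1 peaks in KO only remained.

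Strong member summits overlapped a peak of the other genotype. Of summits with 100 fragments or more, members held 11 for GATA2 in WT and 10 in KO, at Bcl2l1, Mcl1, Bcl2l11, Bad and Bid, and every one of them was shared. They were 22.4% and 19.6% of the member GATA2 peaks, against 10.8% and 10.9% of the whole lists. RUNX1 had 8 such summits in WT, at Bcl2l1, Mcl1, Bax and Bcl2l11, and 7 in KO, at Bcl2l1, Mcl1, Bax and Bid, all shared. They were 19.5% and 14.6% of the member RUNX1 peaks, against 12.7% and 14.2% of the whole lists. The Bcl2l11 summits were under 100 fragments in KO and the Bid summit, with 86, in WT. In the whole lists 99.9% of GATA2 summits this strong were shared in both genotypes, and 99.2% of RUNX1 summits in WT and 99.7% in KO. In the sharing of strong summits the members thus did as the lists did.

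The factors met at 16 GATA2 peaks of WT (32.7%, 19.9 to 47.5) and 20 of KO (39.2%, 25.8 to 53.9), counted where a RUNX1 peak overlapped by at least 1 bp. In the whole GATA2 lists the share was 22.5% in WT and 22.5% in KO. Seen from RUNX1, 16 of 41 WT peaks (39.0%, 24.2 to 55.5) and 20 of 48 KO peaks (41.7%, 27.6 to 56.8) met GATA2, with 53.9% and 52.4% in the whole lists. All these backgrounds but that of the KO GATA2 peaks lay within the members' intervals. Requiring the overlap to cover at least 50% of both peaks left 13 such peaks in KO for either factor, and no whole-list share is given for that rule.

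Most strong GATA2 summits were joint sites. Of the 11 GATA2 summits of 100 fragments or more in WT, 10 met RUNX1, and of the 10 in KO, 9 did, the exception being the Bad peak beyond the 3′ end. The share was 92.0% and 90.7% for such summits in the whole lists. Joint sites also included weaker GATA2 summits, since those strong ones made up 10 of the 16 in WT and 9 of the 20 in KO. At joint sites the WT summits of the factors lay a median of 10 bp apart, with 13 of 16 within 50 bp. In KO the median was 34.5 bp, with 11 of 20 within 50 bp. The WT and KO sites were not the same set: Bax had a joint site in WT only, and Bak1, Bad and Bbc3 in KO only. No whole-list gap is given, so whether the members differed from the lists in this cannot be told. The WT gap was 2 bp at the strongest Bcl2l11 site and 3 bp at the strongest Bcl2l1 site, and in KO these were 33 bp and 440 bp, the latter in the merged peaks.

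RUNX1 and GATA2 differed in where they sat. Of the RUNX1 member peaks 14 of 41 in WT and 16 of 48 in KO lay within 1 kb of the gene's own start, against 2 of 49 and 0 of 51 GATA2 peaks. The factors also differed this way over all genes, of which 28.6% had a RUNX1 and 2.75% a GATA2 promoter summit in both genotypes. Those shares count genes and use the promoter window. No whole-list share of peaks within 1 kb of a start is given, so whether the size of the contrast is particular to the members cannot be told. The BH3-only genes held 10 of the 14 RUNX1 peaks near a start in WT and 11 of the 16 in KO, and 21 of the 41 and 27 of the 48 RUNX1 peaks in all.

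Peaks with a single partner in the other genotype were compared by their fragment numbers. Each number was first divided by the lowest background of its list, a measure of library depth, and the ratio is KO over WT on the log2 scale. GATA2 had 43 such pairs at members. Their median was 0.17, that of all 53508 GATA2 pairs was 0.11, and 28 of the 43 lay above 0, against 60.8% of all pairs. RUNX1 had 34 pairs with a median of 0.22, against 0.19 for all 23560 RUNX1 pairs, and 27 of the 34 lay above 0, against 70.8%. When each list was instead scaled so that the median of all its pairs was 0, the members' medians were 0.059 for GATA2 and 0.032 for RUNX1.

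For GATA2, 5 member pairs had an exact 95% counting interval wholly above the median of the list, and 0 had one wholly below it. In the whole list 5.99% of pairs lay above and 5.46% below. The 5 were at Bcl2 (18 fragments in WT and 52 in KO, log2 ratio 1.45, 0.65 to 2.31), at Bad beyond its 3′ end (31 and 64, 0.96, 0.32 to 1.63), and at 3 places in Bcl2l1. Those in Bcl2l1 lay 45.4 kb (25 and 56, 1.08, 0.37 to 1.82), 61.6 kb (27 and 57, 0.99, 0.31 to 1.71) and 3.43 kb (38 and 71, 0.82, 0.23 to 1.42) from the nearest start. The 5 had 18 to 38 fragments in WT. The 4 strong Bcl2l1 sites with a single partner had ratios between −0.03 and 0.22. The strongest of the 4, with 229 fragments in WT and 246 in KO, came nearest the ceiling of 286 and 282, so its ratio may understate a difference. The weakest of the 4 had 130 and 161 fragments. How far the ceiling affected numbers at either level was not tested.

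For RUNX1, 0 member pairs lay wholly above the median of the list and 1 wholly below, where 6.15% and 6.22% of all pairs did. That pair was beyond the 3′ end of Mcl1, with 39 fragments in WT and 26 in KO (−0.61, −1.38 to 0.14), and its interval included 0. The promoter peak of Mcl1 had a ratio of 0.34 (−0.01 to 0.70), that of Bid 0.45 (−0.03 to 0.94) and that of Bax 0.16 (−0.23 to 0.56). Among genes with 3 or more RUNX1 pairs, the median was highest at Bbc3 (0.51, 5 pairs) and lowest at Bad (−0.02, 3 pairs).

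**Figure D3:**
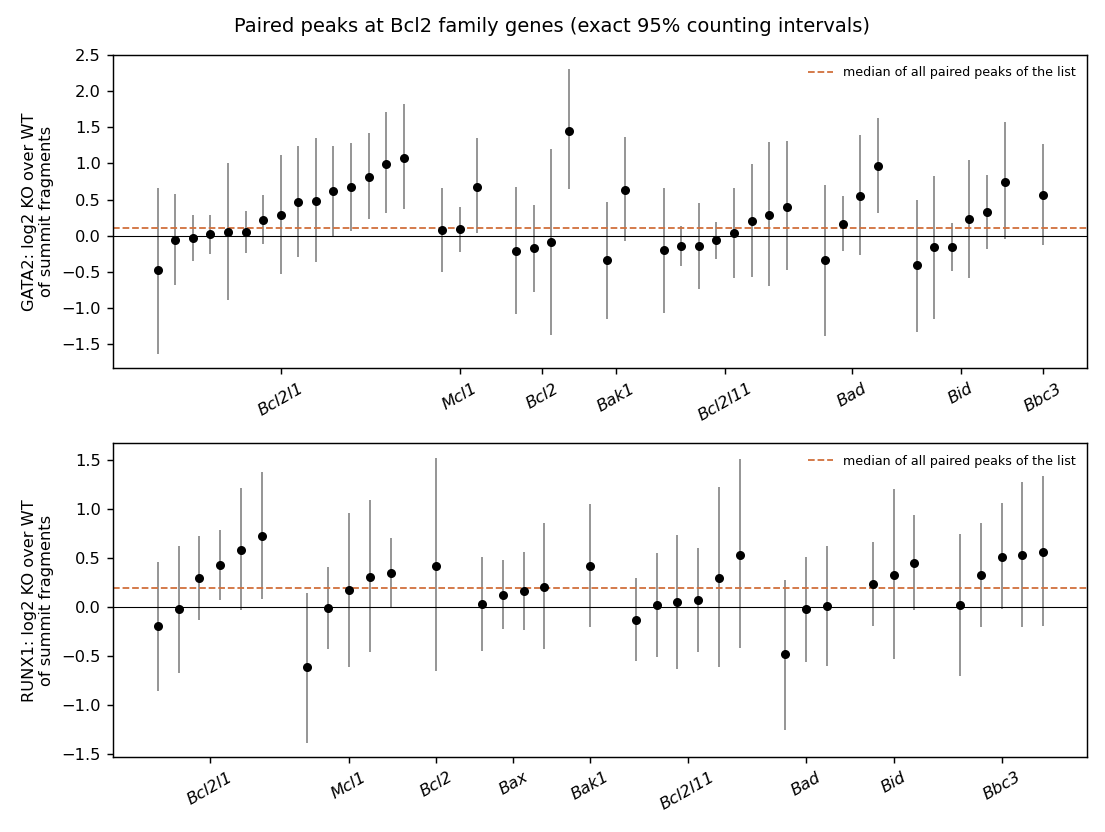
Points are log2 KO over WT of summit fragments for each paired GATA2 (top) and RUNX1 (bottom) peak, grouped by gene, with exact 95% counting intervals, and the dashed line is the median of all pairs of that factor. The intervals of 5 GATA2 pairs lie above the dashed line, at Bcl2l1, Bcl2 and Bad, and 1 RUNX1 interval, at Mcl1, lies below.

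Elongating polymerase at the members was described by the percentage of the gene body under S2P peaks. The same stretch of peaks is a smaller percentage of a longer gene, so a low percentage does not by itself mean little transcription. The level called covered was 50%. Mcl1, Bax, Bak1 and Bid were covered in both genotypes, which is 4 of 10. With S2P peaks of −log10 q below 5 left out, Bax (49.1%) and Bak1 (45.4%) were not covered in KO and 2 members were. Of the 19300 genes of 2 kb or more, 16.7% were covered in WT and 17.1% in KO. 

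Among the guardians, Mcl1 was covered almost end to end, at 98.6% in WT and 98.7% in KO. Bcl2l1, with its many GATA2 peaks, was at 6.48% and 6.33% of its 75.1 kb. Its highest S2P fold over local background was 5.61 in WT and 5.25 in KO. That of the far shorter Bax was 4.66 and 4.39, and that of Bak1 10.9 and 9.13. Bcl2 was close to empty, at 0.136% and 0.330%. The effectors were in between, Bax at 51.9% and 60.3% and Bak1 at 61.9% and 54.9%. Of the BH3-only genes, Bid was at 98.7% and 98.1%, Bbc3 at 48.3% and 38.7%, Bad at 32.3% and 31.8%, Bcl2l11 at 6.03% and 15.1%, and Pmaip1 had no S2P peak. Coverage of Bak1 cannot be told apart from that of Ggnbp1, which spans it and was at 39.4% and 36.1%. WT and KO differed by under 1 percentage point at Mcl1, Bid, Bad, Bcl2l1 and Bcl2, and Bid was the highest member in WT and Mcl1 in KO.

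**Figure D4:**
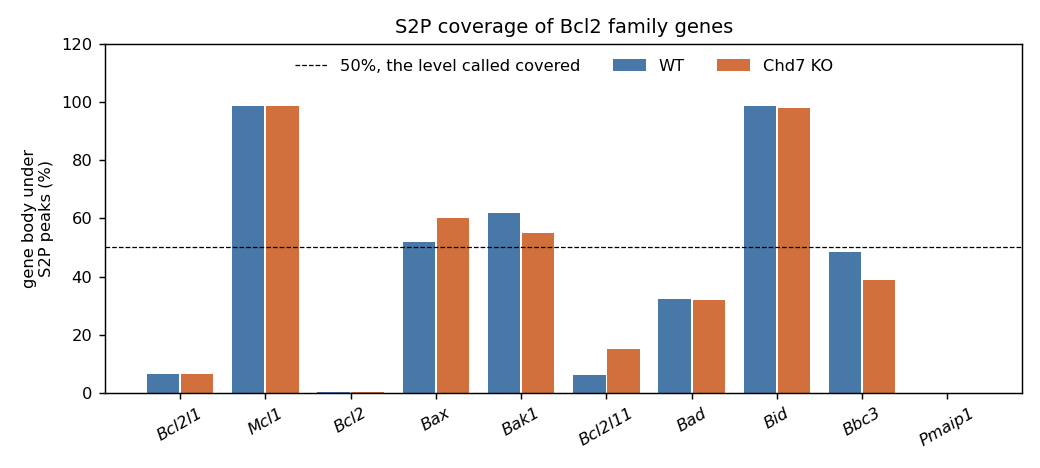
Bars give the percentage of each gene body under S2P peaks in WT and Chd7 KO, 1 list each, and the dashed line marks the 50% at which a gene is called covered. Mcl1 and Bid are near 100 in both, Bax and Bak1 are above the line, and Bcl2l1, Bcl2 and Pmaip1 are near 0.

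Coverage was higher in KO at 4 members and lower at 5. With S2P peaks of −log10 q below 5 left out, Bcl2l1, Bax and Bad turned, and it was higher at 5 and lower at 4. Over the 9984 genes with any coverage, 61.0% were higher in KO, the median difference was 0.67 percentage points, and the 10th and 90th percentiles were −4.81 and 7.75. Outside that range lay Bcl2l11 (9.09 points higher in KO), Bax (8.39 higher), Bak1 (a difference of −7.04) and Bbc3 (−9.58). At Bcl2l11 the number of S2P peaks was 7 in WT and 16 in KO. The Bbc3 difference was lower than that of all but 4.23% of genes. The Bax difference turned to −2.82 points under that limit. Those of Bcl2l11 (8.10), Bak1 (−9.61) and Bbc3 (−11.4) kept theirs.

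Along the genes, coverage was uneven. Each gene was cut into 5 equal stretches, numbered from its 5′ end. In Bcl2l1 it lay almost wholly in stretch 4, with 30.7% of that stretch under peaks in WT and 31.7% in KO, and the first 3 stretches at 0. Bad was covered at 100% in its last stretch in both genotypes, where the first held 12.7% in WT and 4.58% in KO. The last stretch of Bbc3 was at 93.3% in WT and 73.3% in KO, and stretch 4 at 41.1% and 16.6%, whereas the first was at 0 and 15.8%. In Bax the first stretch was at 0 in WT and 31.6% in KO, and the last at 83.9% and 100%, whereas stretch 2 was at 74.1% and 47.6%. At Bcl2l11 the KO list was higher in 4 of the 5 stretches, and the middle one had no S2P peak in either genotype.

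**Figure D5:**
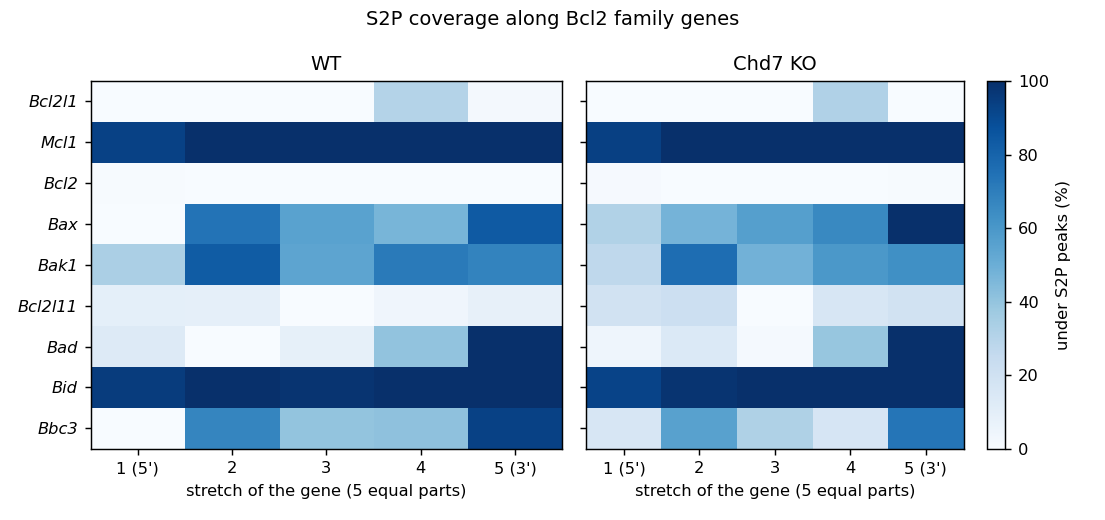
Colour gives the percentage under S2P peaks in each of 5 equal stretches of the gene, 5′ to 3′, in WT (left) and Chd7 KO (right), for the 9 members with any S2P peak. Mcl1 and Bid are dark throughout, Bcl2l1 shows coverage in stretch 4, and Bad and Bbc3 are darkest in the last.

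Strong GATA2 summits stood at members with low and with high S2P coverage. Bcl2l1 and Bcl2l11 had the strongest GATA2 summits (238 and 260 fragments in WT) and S2P coverage of 6.48% and 6.03%. Bak1, with no GATA2 summit above 31 fragments in WT, was at 61.9%. Mcl1 and Bid, near full coverage, had WT GATA2 summits of 163 and 155. The 5 genes most like Bcl2l1 over strongest summits in the 4 factor lists and coverage in the 2 S2P lists (Euclidean distance over 6 values, each divided by its SD over all genes) were Ccnd3, Tmigd3, Elp4, Rabl3 and Ubac2. Their distances ran from 0.0282 to 0.0921. The nearest, Ccnd3, which encodes a D-type cyclin, had strongest GATA2 summits of 226 in WT and 247 in KO, RUNX1 summits of 141 and 162, and coverage of 6.38% and 6.60%.

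The counts in the 5 gene lists that follow stand beside these shares over all protein-coding genes. GATA2 summits lay within 5 kb of 56.6% of them in WT and 61.0% in KO, RUNX1 summits of 50.1% and 52.7%. Among genes of 2 kb or more, S2P covered 16.7% in WT and 17.1% in KO. Whether any list differed from these shares was not tested. Of 14 further Bcl2 relatives, 6 had a GATA2 peak in WT and 8 in KO, 7 and 8 a RUNX1 peak, and 2 were covered in each genotype. The strongest was Bnip3l, whose product NIX removes mitochondria from maturing red cells, with 264 GATA2 fragments in both genotypes and RUNX1 at 190 and 224. Bcl2l13, next to Bid, had GATA2 at 248 and 244 and coverage of 69.1% and 72.3%. Bcl2l2, the gene of the guardian BCL-W, was covered at 58.4% and 63.6%, with RUNX1 at 172 and 203.

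Downstream of the family, 15 of 18 genes of the mitochondrial outlet and caspases had GATA2 in each genotype, 16 in WT and 17 in KO had RUNX1, and 6 and 4 were covered. Vdac2, whose channel protein keeps BAK in check, had GATA2 at 174 and 200 and coverage of 91.2% and 92.2%. Coverage of Htra2, encoding a protease released from mitochondria, was 24.6% in WT and 37.6% in KO, and that of Birc5 (survivin) 56.5% and 45.7%.

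Of 10 death receptor genes, 7 had GATA2 in each genotype, 6 in WT and 7 in KO had RUNX1, and 0 were covered. Cflar, which encodes the caspase-8 brake c-FLIP, had GATA2 at 259 and 256 fragments. The ligand gene Fasl had GATA2 at 122 and 145 and no S2P peak. Coverage of the adaptor genes was 47.9% and 37.7% at Fadd and 13.1% and 5.33% at Tradd.

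Of 9 genes of the p53 and FoxO arm, which drives Bbc3, Pmaip1 and Bcl2l11 in many cells, 8 in WT and 7 in KO had GATA2, 7 in each had RUNX1, and 5 in each were covered. Foxo3 had GATA2 at 228 and 259 and coverage of 58.2% and 66.7%. Trp53 had GATA2 at 214 and 222, and Trp53inp1, a p53 target, was covered at 49.2% and 37.0%. All 5 partner genes had both factors in both genotypes, and 2 were covered in each. Ywhaz and Ywhae encode 14-3-3 proteins that hold phosphorylated BAD in the cytosol. They had GATA2 at 228 and 245, and at 169 and 197. Coverage was 70.5% in WT and 67.3% in KO at Ywhae, and 35.0% and 37.7% at the kinase gene Pak2. In each of these 5 lists some genes had higher and others lower coverage in KO than in WT.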

How the data were processed

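Reads were processed with Bowtie2 2.2.1 and MACS2 2.1.0 on GRCm38, per the submitters' processing notes, which give no roles or settings. The authors deposited 6 peak lists. The deposited score is a whole number that follows −log10 q. The deposited fold is the ratio of pileup to local background at the summit. The authors' peak caller also gave a −log10 p and a −log10 q, and all peaks had a q of about 0.05 or less. The deposited summit is an offset from the peak start.

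Whole fragment numbers at each factor summit were recovered from fold and −log10 p under the caller's Poisson model, and 100% were whole within 0.005 on the −log10 p scale. Peaks were assigned by summit to genes of the RefSeq table of GRCm38.p6 with 5 kb flanks, which holds no exons, so exons and introns were not separated. S2P coverage is the share of a gene under peaks, and background genes were at least 2 kb long. Intervals are exact at 95% and cover counting error only, since each factor list rested on 1 library and reads lacked molecular identifiers. Scripts ran in Python 3.11.15 with scipy 1.17.1 and were tested on simulated data. Inputs had no list and were not used.

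The members and gene lists were chosen with earlier results of these data known. All members are named. Of each other list at most 4 genes are named: the 2 strongest factor summits and the 2 largest coverage differences. One item under this rule is not reported here. Promoters are those with a factor summit in both genotypes. Genes most like Bcl2l1 follow the distance given beside them.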

Additional observations from a re-analysis of the deposited data

How the results depend on the processing

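Of the summary counts and medians, 83 alternatives stayed within 1.5 times the main value, or within its error, and 13 moved. With −log10 q of at least 10, GATA2 peaks at members in WT numbered 30. With −log10 q of at least 5, GATA2 peaks in KO only numbered 2, RUNX1 peaks in WT only 0 and in KO only 7, and members covered by S2P in KO 2. With overlap of at least 50% of both peaks, GATA2 peaks met by RUNX1 in KO numbered 13, RUNX1 peaks met by GATA2 in KO 13, and RUNX1 peaks in WT only 9. With coverage of at least 75%, 2 members were covered in WT and 2 in KO. The median log2 ratio of GATA2 pairs was 0.059 with the median of all pairs set to 0, and 0.25 unscaled, and that of RUNX1 pairs was 0.032 with the median set to 0. The KO minus WT coverage difference turned at −log10 q of at least 5 for Bcl2l1 (0.73 points), Bax (−2.82) and Bad (0.66), and for Bad also with 5 kb flanks (1.88). The cause was not tested.

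No paired analysis was possible because each S2P list combines its replicates and each factor has 1 library per genotype. For the same reason no replicate was left out. Counting error limits peaks of few fragments most, and the ceiling of 286 fragments in WT and 282 in KO limits the strongest.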

Other observations

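Several member peaks lie beside or inside other genes, whose own values were as follows. Ftl1, the ferritin light chain gene next to Bax, was under S2P peaks for 100% of its length in both genotypes, and RUNX1 had 74 fragments in WT and 77 in KO at 62 and 45 bp from its start. Sae1, beside Bbc3, was covered at 75.8% and 78.3%, where Bbc3 itself was at 48.3% and 38.7%. Plcb3, beyond the 3′ end of Bad, was at 10.8% and 7.97%, and Gpr137, at the 5′ end of Bad, at 24.4% and 25.1%. Cox4i2, which overlaps the 3′ part of Bcl2l1 by 6308 bp and holds its 158-fragment GATA2 peak within 5 kb, had no S2P peak over its body in either genotype. Acoxl, which overlaps the 5′ end of Bcl2l11 by 215 bp, had none either.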
